A study of Mus musculus with 12 samples.

Results

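The genes of hepatic glucose production were followed through the 12 libraries as a set of 7, picked by symbol as G6pc, Slc37a4, Pck1, Pck2, Fbp1, Pcx and Ppargc1a, out of 52636 genes in the deposited table. All 7 were found, each on 1 row, and all 7 passed the filter on low values that left 16563 genes for testing. The libraries were made from polyA RNA of hepatocytes isolated from fatty mouse livers, with 3 wild-type (WT) mice and 3 PTPRK knockout (KO) mice. PTPRK is protein tyrosine phosphatase receptor kappa, a membrane phosphatase encoded by Ptprk. By Percoll density gradient and differential spins, viable hepatocytes of each mouse were split into a fraction with little fat and a fraction with much fat, called low-fat and high-fat. Each genotype thus has 3 libraries of either fraction, in 4 groups. Replicates are different mice, and the 2 fractions of a mouse share its number here. The strain, age, sex, diet, fasting state and design of the knockout allele are not given in the sources used here.

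Gluconeogenesis makes new glucose from lactate, amino acids and glycerol, and in the fasted state the liver is its main site. It runs most of glycolysis backwards, and separate enzymes bypass the steps of glycolysis that cannot be reversed. Glucagon and glucocorticoids raise transcription of these enzymes and insulin lowers it, and the pathway is more active in periportal than in pericentral hepatocytes. The set holds 5 enzymes. Pcx encodes pyruvate carboxylase, which makes oxaloacetate in mitochondria. Pck1 and Pck2 encode the cytosolic and the mitochondrial phosphoenolpyruvate carboxykinase. Fbp1 encodes the liver fructose bisphosphatase, and G6pc the catalytic subunit of glucose-6-phosphatase, which releases free glucose in the endoplasmic reticulum. The other two are no enzymes: Slc37a4 encodes the transporter that brings glucose-6-phosphate to G6pc, and Ppargc1a encodes PGC-1α, a transcriptional coactivator of the programme.

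Levels are given as deposited, as gene reads scaled to 20 M (mega) per library. Estimated depth lay between 15.1 and 25 M reads, and 3 reads correspond to between 2.4 and 3.98 reads per 20 M. In the check of the labels, Ptprk lay between 2174 and 2883 in the 6 WT libraries and between 1117 and 1364 in the 6 KO libraries, so that it was lower but not absent in KO. Summed over 8 hepatocyte markers, the level lay between 595185 and 664114 reads per 20 M in the low-fat libraries and between 571466 and 666817 in the high-fat libraries. The 9 Kupffer cell markers summed to between 450 and 1277 in the low-fat and between 1976 and 10671 in the high-fat libraries, the 8 stellate cell markers to between 145 and 695 against between 2141 and 3632, and the 8 sinusoidal endothelial markers to between 1137 and 3102 against between 4832 and 14196. These other cell types were therefore more strongly represented in every high-fat library. No single list of their markers took more than 0.071% of a library, and a share of marker genes does not measure how much RNA those cells gave. No marker was at 0 in all libraries.

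Compared per length of annotated exons, the 7 genes fell into a high and a low tier. Pck1 stood at 844 ± 184 reads per kb per M (SD, n = 12 libraries) and Fbp1 at 662 ± 98.4. G6pc followed at 469 ± 134, Pcx at 218 ± 20.9 and Slc37a4 at 80.2 ± 11.5. Ppargc1a was far lower at 3.04 ± 0.672, and Pck2 was the lowest at 0.2 ± 0.0484. The library ranges of Pck1 (586 to 1260), Fbp1 (514 to 827) and G6pc (244 to 613) overlapped between neighbours, so their order is not firm, while Pcx (177 to 247) overlapped only narrowly with G6pc. Slc37a4 (61.6 to 100), Ppargc1a (2.01 to 4.13) and Pck2 (0.122 to 0.275) overlapped with none of the others. Per length is computed from GENCODE M21 exons on GRCm38, and the submitters' processing notes name mm9.

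The carboxykinase was thus almost all Pck1, with between 934 and 2890 scaled reads of Pck1 for each one of Pck2. Only between 14 and 47 reads per library lay behind Pck2, and the exact Poisson 95% interval of the library with the fewest, KO high-fat replicate 3, ran from 10.2 to 31.2 reads per 20 M. Such intervals cover counting error only, because amplified reads are not independent molecules.

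**Figure D1:**
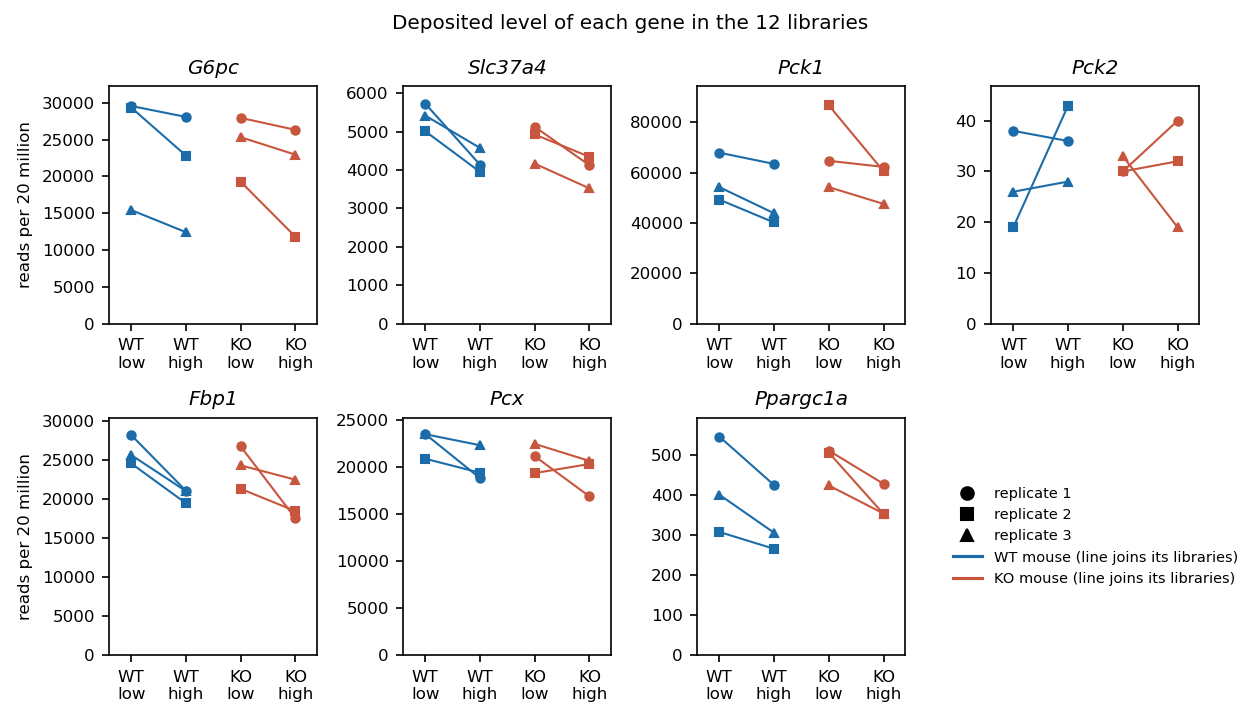
Level of each of the 7 genes in the 12 libraries, in reads per 20 M from 0 on a linear axis; a line joins both fractions of a mouse, blue for WT and red for KO, and marker shapes give the replicate number. The lines of G6pc, Slc37a4, Pck1, Fbp1 and Ppargc1a run downward in all 6 mice, and G6pc is lowest in WT mouse 3 and KO mouse 2.

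The first question was how the fat fraction of a mouse relates to the level of these genes. G6pc, Slc37a4, Pck1, Fbp1 and Ppargc1a were lower in the high-fat than in the low-fat fraction of every mouse, by 19.8% to 24.6% on average for single genes. With mouse as a term of the model, Ppargc1a, Slc37a4, G6pc and Fbp1 passed the test over both genotypes, and without that term Slc37a4 alone did. Pcx was lower in 5 of 6 mice and Pck2 in 2 of 6, and neither passed either test.

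The release of glucose in the endoplasmic reticulum rests on G6pc and Slc37a4. G6pc (ENSMUSG00000078650; chromosome 11, 101367561 to 101377903, plus strand) had 29592, 29377 and 15430 reads per 20 M in the WT low-fat libraries, and 28104, 22839 and 12423 in the WT high-fat libraries of the same mice. In KO it had 27972, 19281 and 25340 in the low-fat and 26345, 11794 and 22970 in the high-fat libraries. All 4 groups overlapped, and both libraries of WT mouse 3 and both of KO mouse 2 lay under those of the other mice. Within each mouse the high-fat library was nevertheless the lower one, with log2 differences between -0.70 and -0.14, after rescaling between libraries. Averaged over both genotypes the log2 difference was -0.36 (SE 0.252, adjusted p = 0.478 without a mouse term), and with the mouse term its SE was 0.091 and the adjusted p was 0.0425. That call did not survive leaving out any of WT mice 1, 2 and 3 or KO mice 2 and 3 (adjusted p between 0.0569 and 0.145), while without KO mouse 1 it was 0.0179. It was not called either with an estimated correlation between the libraries of a mouse in place of the mouse term (adjusted p = 0.217), nor with the mouse term on the scaling by median of ratios (0.0535) or on the deposited scaling alone (0.0805). Of 30 settings tried, 2 called G6pc, and its value was negative in all 30.

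Slc37a4 (ENSMUSG00000032114; chromosome 9, 44396852 to 44402968, plus strand, overlapping Mir7085 on the same strand) had 5728, 5010 and 5418 reads per 20 M in the WT low-fat and 4137, 3950 and 4574 in the WT high-fat libraries. The corresponding KO libraries had 5124, 4925 and 4165, and 4123, 4343 and 3521. In WT every low-fat library lay above every high-fat library, and in KO the lowest low-fat library lay within the high-fat range. Averaged over both genotypes, Slc37a4 fell by 0.37 on the log2 scale in high-fat hepatocytes (SE 0.088, adjusted p = 0.0278), which is -22.8%. It was called without a mouse term and with it (adjusted p = 0.0116). Without a mouse term the call was lost when any 1 of 7 of the 12 libraries was left out, namely WT low-fat replicates 1 and 3, WT high-fat replicates 1 and 2, KO low-fat replicate 1 and KO high-fat replicates 1 and 3 (adjusted p between 0.0604 and 0.079). In the fit with the mouse term, leaving out WT mouse 1 gave an adjusted p of 0.0633, and leaving out any other mouse gave values from 0.00699 to 0.0492. G6pc and its transporter did not keep a fixed proportion: the ratio of their scaled reads ranged from 2.72 in WT high-fat replicate 3 and KO high-fat replicate 2 to 6.79 in WT high-fat replicate 1.

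Pck1 and Pcx make phosphoenolpyruvate from pyruvate by way of oxaloacetate. Pck1 (ENSMUSG00000027513; chromosome 2, 173153048 to 173159273, plus strand) had 67892, 49243 and 54225 reads per 20 M in the WT low-fat and 63421, 40170 and 43815 in the WT high-fat libraries. KO mice had 64657, 86724 and 54210 in the low-fat and 62249, 60500 and 47541 in the high-fat fraction. The groups overlapped, the highest value was in KO mouse 2, and in all 6 mice the high-fat library was the lower one. The log2 difference over both genotypes was -0.32 (SE 0.156, adjusted p = 0.295), and it missed the threshold with the mouse term too (adjusted p = 0.0829). Without KO mouse 1 the latter was 0.029.

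Pcx (ENSMUSG00000024892; chromosome 19, 4510472 to 4621752, plus strand, overlapping Lrfn4 on the opposite strand) had 23494, 20870 and 23477 reads per 20 M in the WT low-fat and 18803, 19381 and 22307 in the WT high-fat libraries. In KO the values were 21136, 19344 and 22447, and 16862, 20310 and 20635. The groups overlapped and KO mouse 2 had the higher value in its high-fat library. The log2 difference was -0.22 (SE 0.109, adjusted p = 0.3, and 0.185 with the mouse term). Pck2 (ENSMUSG00000040618; chromosome 14, 55540266 to 55551242, plus strand, overlapping Gm10876 on the opposite strand) had 38, 19 and 26 reads per 20 M in the WT low-fat, 36, 43 and 28 in the WT high-fat, 30, 30 and 33 in the KO low-fat and 40, 32 and 19 in the KO high-fat libraries. Its log2 difference was 0.07 with a 95% interval from -0.40 to 0.54 (adjusted p = 0.886), and this interval includes differences of the size seen in the other genes.

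Fbp1 (ENSMUSG00000069805; chromosome 13, 62864753 to 62888282, minus strand) had 28150, 24520 and 25597 reads per 20 M in the WT low-fat and 21017, 19421 and 20982 in the WT high-fat libraries. In KO the low-fat values were 26692, 21269 and 24279 and the high-fat values 17494, 18420 and 22437. The WT fractions did not overlap, and in KO only high-fat replicate 3 reached into the low-fat range. The log2 difference over both genotypes was -0.40 (SE 0.113, adjusted p = 0.0615), and with the mouse term Fbp1 was called (SE 0.106, adjusted p = 0.0471). That call was lost without WT mouse 1, 2 or 3 or KO mouse 3 (adjusted p between 0.0652 and 0.184), and it held without KO mouse 1 (0.0187) or KO mouse 2 (0.0382).

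The coactivator gene Ppargc1a (ENSMUSG00000029167; chromosome 5, 51454250 to 51567726, minus strand, overlapping Gm42613 on the opposite and Gm42614, Gm42615 and Gm43605 on the same strand) had 545, 307 and 400 reads per 20 M in the WT low-fat and 424, 265 and 305 in the WT high-fat libraries. In KO it had 510, 505 and 423 in the low-fat and 427, 352 and 353 in the high-fat libraries. The fractions overlapped in both genotypes, in KO only between 423 and 427. The 6 within-mouse log2 differences lay between -0.51 and -0.22, the narrowest spread but for that of Pck1 (SD 0.132 against 0.12). With the mouse term Ppargc1a fell by 0.41 on the log2 scale, or -24.6% (SE 0.068, adjusted p = 0.00868), and it stayed under the threshold without any 1 of the 6 mice (adjusted p between 0.00891 and 0.0467). Without the mouse term it was not called (SE 0.153, adjusted p = 0.17).

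**Figure D2:**
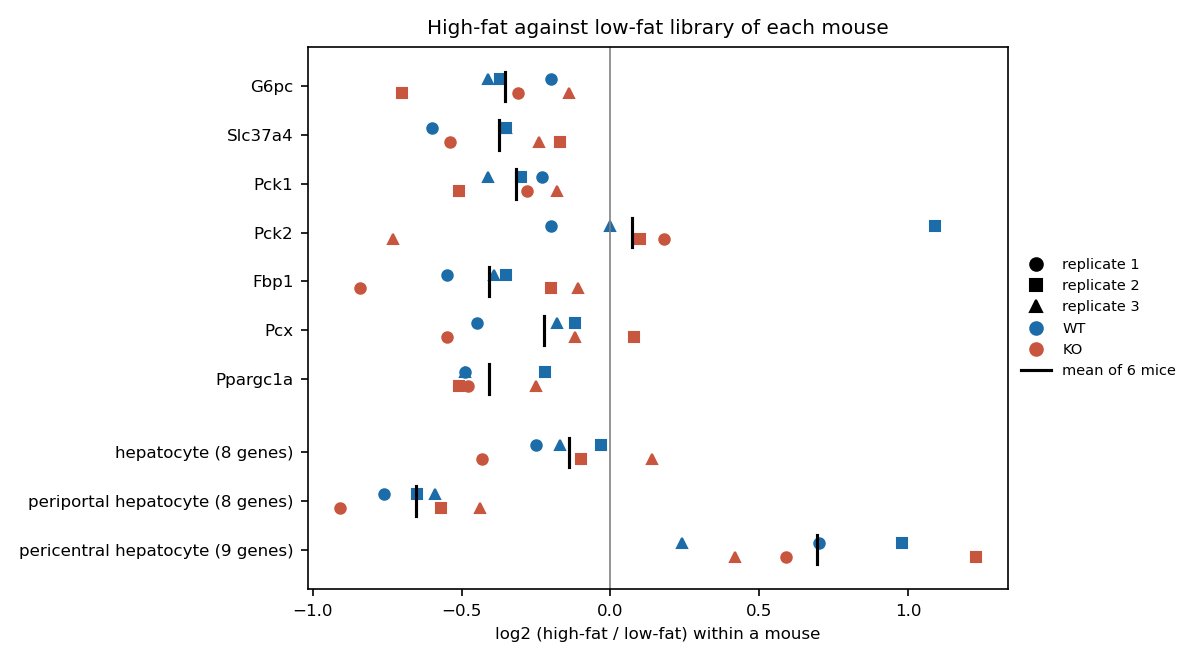
Log2 ratio of the high-fat to the low-fat library within each mouse (horizontal axis) for the 7 genes and for the mean over 3 marker lists of hepatocytes and their zones; points are mice, blue for WT and red for KO, with shapes for replicate numbers and a black bar at the mean of 6 mice. All points of G6pc, Slc37a4, Pck1, Fbp1 and Ppargc1a lie left of 0, those of Pck2 spread from -0.73 to 1.09, and the periportal and pericentral lists lie on opposite sides of 0.

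Read against the whole table, 4 of the 7 genes were called lower with the mouse term, where 3.8% of all genes tested were, and 1 of 7 was called lower without it, where 0.773% were. Lower values in 6 of 6 mice were seen for 5 of the 7 genes and for 11.7% of all genes tested. Among the 3627 genes averaging 1000 or more reads per 20 M, a level chosen after the values were seen, 23.2% were lower in 6 of 6 mice. The median log2 difference was -0.36 over the 7 genes and -0.04 over all genes, and it was -0.11 over those 3627 genes. Exact sign-flip permutation tests over the 6 mice gave p = 0.0312 for each of the 5 genes, the smallest value that 6 mice allow, 0.0625 for Pcx and 0.719 for Pck2 (two-sided, 7 genes tested, not adjusted).

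The size of the differences depended on what the libraries were scaled to. With the mean level of the hepatocyte markers as the common scale, an alternative added after the data were seen, the median of all genes moved to 0.10 and only 1.93% of all genes were lower in 6 of 6 mice. On that scale Slc37a4 (-0.23), Fbp1 (-0.26) and Ppargc1a (-0.27) were still lower in 6 of 6 mice, and G6pc (-0.22) and Pck1 (-0.18) in 4 of 6. Fbp1 was called there both without the mouse term (adjusted p = 0.0438) and with it (0.016). Slc37a4 (0.19 and 0.0817), Ppargc1a (0.195 with the mouse term) and G6pc (0.171 with the mouse term) were not called on that scale.

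Markers of liver zones moved with these genes. Of 9 periportal markers, 5 fell in the high-fat fraction without the mouse term (Cyp2f2, Hal, Sds, Gls2 and Aldh1b1) and 7 with it, where 0.773% and 3.8% of all genes fell, and none rose. Of 9 pericentral markers, 4 rose (Cyp1a2, Lgr5, Gulo and Cyp2e1) and 6 with the mouse term, where 4.99% and 6.65% of all genes rose, and none fell. Pck1 itself stands on the periportal list. Without it the mean log2 difference of the list lay between -0.91 and -0.44 in the 6 mice, against between -0.40 and -0.09 for the mean of the 7 genes and between -0.43 and 0.14 for the hepatocyte markers. The mean of -0.09 belongs to WT mouse 2, where Pck2, which rests on few reads, stood at 1.09. The other genes of the set lay between -0.37 and -0.12 in that mouse. In KO mouse 3 Pck2 stood at -0.73 and the others between -0.25 and -0.11. All 8 stellate and all 8 sinusoidal endothelial markers rose with and without the mouse term, as did 7 of 9 Kupffer cell markers without it and 8 with it. The mean log2 difference of the Kupffer list was largest in WT mouse 1 (3.17) and KO mouse 1 (3.93). Slc37a4, Fbp1 and Pcx had their most negative values in those mice, while G6pc (-0.70) and Pck1 (-0.51) had theirs in KO mouse 2. The part of zone and of other cell types in the differences above was not tested. In such bulk libraries, fewer cells with a transcript and less of it per cell cannot be told apart.

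Within a single genotype, none of the 7 genes was called in either fraction comparison, with or without the mouse term. With an estimated correlation between the libraries of a mouse, Slc37a4 was called in WT (adjusted p = 0.047). In WT, 0% of all genes were called without the mouse term (1902 genes at an unadjusted p under 0.05) and 1.02% with it. The WT values of smallest adjusted p were those of Slc37a4 (-0.43, SE 0.124, adjusted p = 0.187, and 0.0757 with the mouse term) and Fbp1 (-0.43, SE 0.159, adjusted p = 0.32). In KO, 0.894% of all genes were called without the mouse term and 2.14% with it. The log2 difference of Ppargc1a in KO was -0.41 (SE 0.216, adjusted p = 0.684, and 0.0692 with the mouse term), that of Fbp1 -0.38 and that of G6pc -0.38.

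Whether the fraction difference depended on the genotype was asked by the interaction term. It called none of the 7 genes and 0% of all genes, with 24 genes of the whole table at an unadjusted p under 0.05, or 64 with the mouse term. The interaction was 0.12 (95% interval -0.27 to 0.50) for Slc37a4, 0.05 (-0.44 to 0.54) for Fbp1, -0.01 (-0.68 to 0.66) for Ppargc1a and -0.05 (-1.15 to 1.05) for G6pc, on the log2 scale. Each of these intervals includes a value as large as the fraction difference of the gene itself, so a dependence on genotype of that size could be missed.

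The second question was whether loss of Ptprk moved the pathway. None of the 7 genes was called in low-fat libraries, in high-fat libraries or over the means of the 6 mice, where Ptprk alone was called and so 0.00604% of all genes each time. The adjusted p of each of the 7 genes was 1 in all 3 comparisons. Ptprk fell by 1.13 on the log2 scale in low-fat (SE 0.092, adjusted p = 0.000982) and by 0.98 in high-fat libraries (SE 0.092, adjusted p = 0.00448). Over the mouse means it fell by 1.05 (adjusted p = 0.0394), a call lost with the replicate number as a block (adjusted p = 0.11).

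The intervals show what these libraries can bound, in fits that took the 12 libraries as independent although each mouse gave 2. For Slc37a4 the log2 difference of KO and WT was -0.18 (95% interval -0.45 to 0.10) in low-fat and -0.06 (-0.33 to 0.21) in high-fat libraries, for Pcx -0.10 (-0.44 to 0.24) and -0.04 (-0.38 to 0.29), and for Fbp1 -0.11 (-0.46 to 0.24) and -0.06 (-0.41 to 0.29). Pck1 stood at 0.26 (-0.22 to 0.74) and 0.25 (-0.23 to 0.73), and Ppargc1a at 0.24 (-0.23 to 0.72) and 0.23 (-0.24 to 0.70). The least precise were G6pc, with 0.02 (-0.76 to 0.80) and -0.03 (-0.81 to 0.75), and Pck2, with 0.21 (-0.45 to 0.88) and -0.24 (-0.90 to 0.43). A change of 1.5-fold in either direction thus lies within the interval of G6pc in both fractions.

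**Figure D3:**
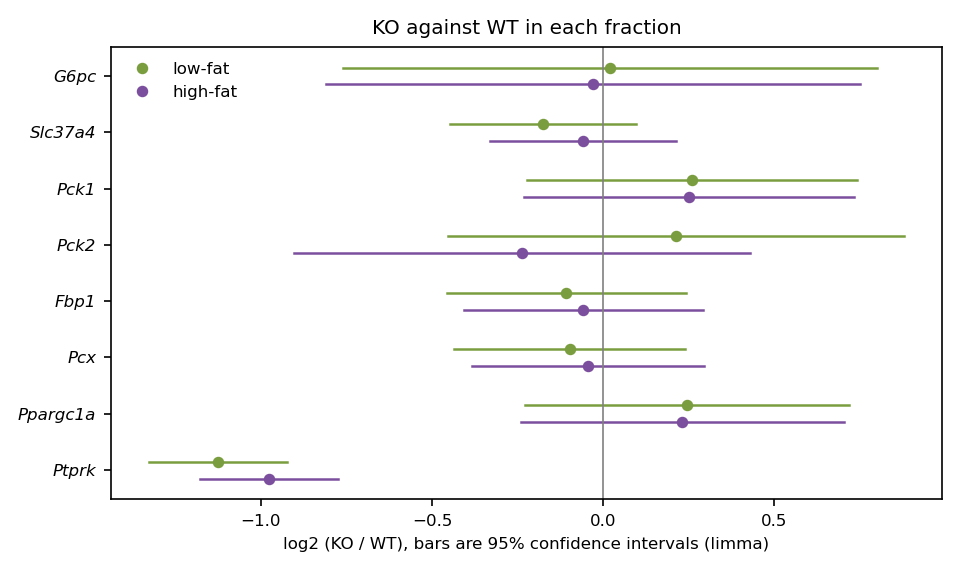
Log2 ratio of KO to WT (horizontal axis) in low-fat (green) and high-fat (purple) libraries, with limma 95% confidence intervals as bars, for the 7 genes and Ptprk. The bars of all 7 genes cross 0 in both fractions, those of G6pc run from about -0.8 to 0.8, and those of Ptprk lie left of 0.

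Taking each mouse once, as the mean of its 2 libraries, WT and KO mice overlapped for all 7 genes, and 6.35% of all genes tested did not overlap. The exact permutation test of 3 against 3 mice, whose smallest p is 0.1, gave 0.3 for Pck1, 0.4 for Slc37a4, 0.5 for Ppargc1a, 0.6 for Pcx, 0.7 for Fbp1, 0.9 for G6pc and 1.0 for Pck2 (two-sided). On the scale of the hepatocyte markers 3 genes, Slc37a4 (-0.19), Fbp1 (-0.15) and Pcx (-0.14), did not overlap and were lower in KO, where 8.01% of all genes did not overlap. The whole table was shifted on that scale, with 71.6% of all genes lower in KO and a median of -0.07. The counts that follow are on the scaling of the main fits, where 50.4% of all genes were lower in KO mouse means. There, 8 of 9 pericentral markers were lower in KO, with a list median of -0.49 on the log2 scale. All 8 sinusoidal endothelial markers were lower with a median of -0.57, and all 9 Kupffer cell markers were lower with a median of -0.44. By limma 0 of these lists' genes were called, and 3, 6 and 0 had an unadjusted p under 0.05, as did 2.23% of all genes tested. The median of the periportal list was 0.08. Stellate cell markers were mixed, with Col1a1 (0.326) and Col3a1 (0.003) higher in KO. The other stellate markers were lower, from -0.624 for Des to -0.049 for Reln, and all of the list overlapped between genotypes. The part of these differences in the values of the 7 genes was not tested.

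Differences between single mice were larger than those between genotypes, above all for G6pc. Its mean over both libraries of a mouse was 13926 reads per 20 M in WT mouse 3 and 15538 in KO mouse 2, and between 24155 and 28848 in the other 4 mice. Pck1 took another order: KO mouse 2 had its highest mean, 73612, and WT mouse 2 its lowest, 44706. For each scaled read of G6pc there were therefore 4.5 and 5.13 of Pck1 in the pair of libraries of KO mouse 2, 3.51 and 3.53 in WT mouse 3, and between 1.68 and 2.36 in the other 8 libraries. The ratio was close in the 2 libraries of a mouse and differed between mice, in both genotypes.

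**Figure D4:**
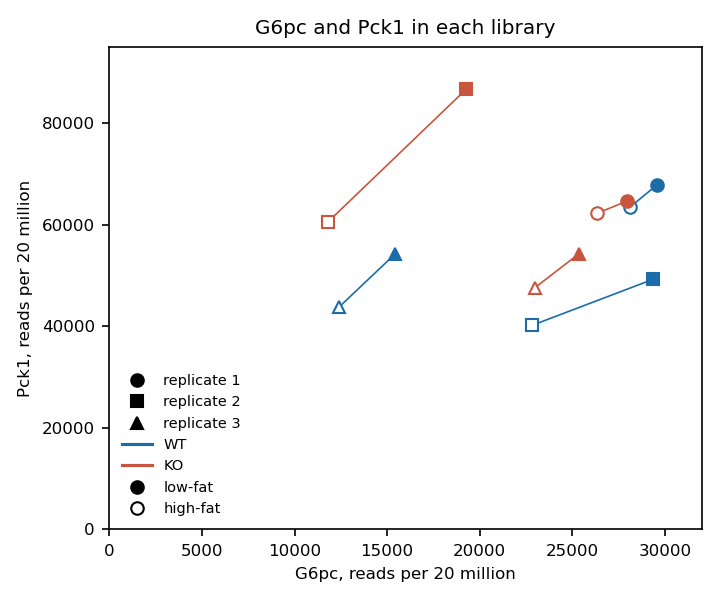
Pck1 against G6pc in the 12 libraries, both in reads per 20 M on linear axes from 0; filled symbols are low-fat and open symbols high-fat libraries, blue is WT and red is KO, shapes give the replicate number and a line joins the libraries of a mouse. WT mouse 3 and KO mouse 2 stand left of the other 4 mice, and the low-fat library of KO mouse 2 also stands highest.

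Across the 12 libraries, which are 2 from each of 6 mice, Pearson's r of the log2 levels was 0.17 for G6pc and Pck1 and 0.89 for Pck1 and Ppargc1a. It was 0.87 for Fbp1 and Pcx, 0.77 for Fbp1 and Slc37a4 and 0.70 for Pcx and Slc37a4. These are descriptions over libraries that share mice and fractions. The genes most like each of the 7 by the same measure, among tested genes that averaged 100 or more reads per 20 M, were Whamm (0.943), Efna3 (0.925) and Nid2 (0.922) for G6pc, and Tesk2 (0.935), Sel1l (0.917) and Zfp324 (0.917) for Pck1. They were Stt3b (0.928), Gga2 (0.926) and Fem1a (0.923) for Slc37a4, Acat3 (0.962), Olfm3 (0.959) and Cbs (0.958) for Fbp1, and Cisd3 (0.981), Zfp697 (0.964) and Prdx4 (0.962) for Pcx. Ppargc1a was most like Gcnt4 (0.94), Pdia5 (0.938) and Setd7 (0.936), and Pck2 most like Tns1 (0.776), Arf2 (0.771) and Slc5a3 (0.732), at lower values.

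Pck1, G6pc, Ppargc1a, Slc37a4 and Fbp1 were all lower in the high-fat fraction of all 6 mice, while G6pc and Pck1 differed in their pattern over mice. The promoters of Slc37a4 and Fbp1 are not printed, and their matches are counted below. Those of Pck1, G6pc and Ppargc1a are shown. Each is the 250 bases before the annotated start, from RefSeq on GRCm38.p6, 5′ to 3′ along the gene, and capitals mark the matches listed after them.
Pck1 promoter, chr2:173152823-173153072, plus strand: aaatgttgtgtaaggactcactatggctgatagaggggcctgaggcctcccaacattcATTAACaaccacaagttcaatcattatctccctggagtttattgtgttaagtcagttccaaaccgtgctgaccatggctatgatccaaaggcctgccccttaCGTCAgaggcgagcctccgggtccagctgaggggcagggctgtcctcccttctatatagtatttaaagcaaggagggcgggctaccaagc
G6pc promoter, chr11:101367466-101367715, plus strand: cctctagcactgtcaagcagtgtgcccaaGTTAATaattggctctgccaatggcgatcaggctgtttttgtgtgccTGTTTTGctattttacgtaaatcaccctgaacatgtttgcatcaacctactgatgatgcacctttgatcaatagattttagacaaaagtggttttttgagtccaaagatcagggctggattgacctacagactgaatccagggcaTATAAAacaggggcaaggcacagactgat
Ppargc1a promoter, chr5:51567726-51567975, minus strand: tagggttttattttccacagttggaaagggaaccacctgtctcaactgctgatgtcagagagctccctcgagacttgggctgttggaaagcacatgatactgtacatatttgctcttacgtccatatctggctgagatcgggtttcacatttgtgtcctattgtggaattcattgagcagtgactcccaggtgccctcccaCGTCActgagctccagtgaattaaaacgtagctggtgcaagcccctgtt
Positions are counted back from the start, with -1 as the last base before it. In Pck1 the capitals are TGACG, the core of the cyclic AMP response element, read on the minus strand from -90 to -86, and the HNF1 core GTTAAT, read on the minus strand from -192 to -187. Ppargc1a holds TGACG from -49 to -45 on the strand opposite the gene, which is the plus strand of the chromosome. G6pc holds no TGACG there, and it holds GTTAAT from -221 to -216, the insulin response element core TGTTTTG from -174 to -168 and TATAAA from -29 to -24, all on the plus strand.

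RefSeq lists 10 start windows for the 7 genes, and all 7 genes were matched. On both strands, TGACG stood in 4 of the 10 windows (those of Pck1 and Ppargc1a and 2 of Slc37a4) and in 17.8% of all 32851 windows of the same length. TGTTTTG stood in 2 (G6pc and Pck2; 5.56% of all), GTTAAT in 2 (G6pc and Pck1; 6.43%), TATAAA in 2 (G6pc and 1 of Slc37a4; 12.4%) and the E-box CACGTG in 1 (Pcx; 6.02%). None of the 10 held the full cyclic AMP response element TGACGTCA (1.55% of all, and it contains TGACG), the FOXO site TGTTTAC (3.17%), the C/EBP motif TTNNGCAA (9.56%) or the glucocorticoid receptor core TGTTCT (16.1%). The Fbp1 window held none of the letters searched. The 2 Slc37a4 windows with TGACG overlap. The match from -61 to -57 in the first is the same site as that from -214 to -210 in the second. The second also holds a match from -82 to -78. A match is a description of these letters only.

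The genes around the pathway were taken from 8 lists, all of whose 117 members were tested, and the counts below are for high-fat against low-fat over both genotypes. They stand against 58.6% of all genes tested with negative values, or 83.7% of the 3627 genes averaging 1000 or more reads per 20 M. Of all genes, 0.773% fell and 4.99% rose without the mouse term, and 3.8% fell and 6.65% rose with it. The steps that run in both directions between gluconeogenesis and glycolysis all had negative values, 8 of 8 with a median of -0.27, and their mean lay between -0.66 in KO mouse 1 and -0.03 in KO mouse 2. Gpi1, glucose phosphate isomerase, fell (-0.55, adjusted p = 0.0288), and with the mouse term Eno1, enolase, fell too (-0.40, adjusted p = 0.0332). Of 29 genes of substrate entry and shuttles, 24 had negative values (median -0.18), 3 fell without the mouse term, and with it 7 fell and 1 rose. Gls2, liver glutaminase, had the lowest adjusted p (-0.70, adjusted p = 0.00399), and the serine dehydratase Sds (-0.64, 0.0366) and its relative Sdsl (-0.72, 0.01) fell as well. With the mouse term, Got1, the cytosolic aspartate aminotransferase (-0.45, adjusted p = 0.00537), and Slc25a12, a mitochondrial aspartate and glutamate carrier (-0.31, 0.0148), fell, and Aqp9, the glycerol channel of hepatocytes, rose (0.32, 0.0186). Sds and Gls2 also stand on the periportal list.

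Of 26 transcription factors and coregulators, 22 had negative values (median -0.12). Esrra, an orphan nuclear receptor that PGC-1α coactivates, fell without the mouse term (-0.26, adjusted p = 0.0478) and with it (0.0428). Stat3 (-0.30, adjusted p = 0.0113) and Hnf4a, a nuclear receptor of hepatocyte identity (-0.30, 0.0419), fell with the mouse term only. Of 17 hormone receptors and kinases 14 had negative values (median -0.06), and with the mouse term 1 rose, Grb10, an adaptor of the insulin receptor (0.68, adjusted p = 0.0334). Trib3 (0.15, adjusted p = 0.851) and Pde4b (-0.02, adjusted p = 0.986) were not called.

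Of 11 shared targets of fasting signals 8 had negative values (median -0.14), and Pdk4, a kinase that shuts off pyruvate dehydrogenase, rose with the mouse term (0.71, adjusted p = 0.0388), while Sesn1 stood at 0.14 (adjusted p = 0.561). Of 10 genes of the opposing glycolytic steps 7 had negative values (median -0.08). With the mouse term Pklr, liver pyruvate kinase, fell (-0.50, adjusted p = 0.0131), and Pfkfb3, which makes the activator of phosphofructokinase, rose (0.74, 0.0199). None of 11 glycogen genes was called (9 with negative values, median -0.15), with Ppp1r3g at 0.12 (adjusted p = 0.944) and Ppp1r3b at -0.20 (0.524). None of 5 paralogs and relatives of the 7 genes was called (median -0.10), with Ppargc1b at -0.25 (adjusted p = 0.684) and G6pc3, the widely expressed paralog of G6pc, at -0.07 (0.784). No gene of the 8 lists was called in any comparison of KO and WT.

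The sign of several lists depended on the scaling. On the scale of the hepatocyte markers, where the median of all genes was 0.10, the transcription factors had 17 of 26 positive values (median 0.02), the hormone receptors and kinases 12 of 17 (median 0.08), the opposing glycolytic steps 7 of 10 (median 0.06) and the paralogs 3 of 5 (median 0.04), and no gene of these lists was called without the mouse term. The negative values numbered 6 of 11 for the glycogen genes (median -0.01), 6 of 11 for the shared targets of fasting signals (median near 0) and 18 of 29 for substrate entry and shuttles (median -0.04), where Gls2 and Sdsl were called lower. The reversible steps kept 8 of 8 negative values (median -0.13), with Gpi1 called lower.

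**Figure D5:**
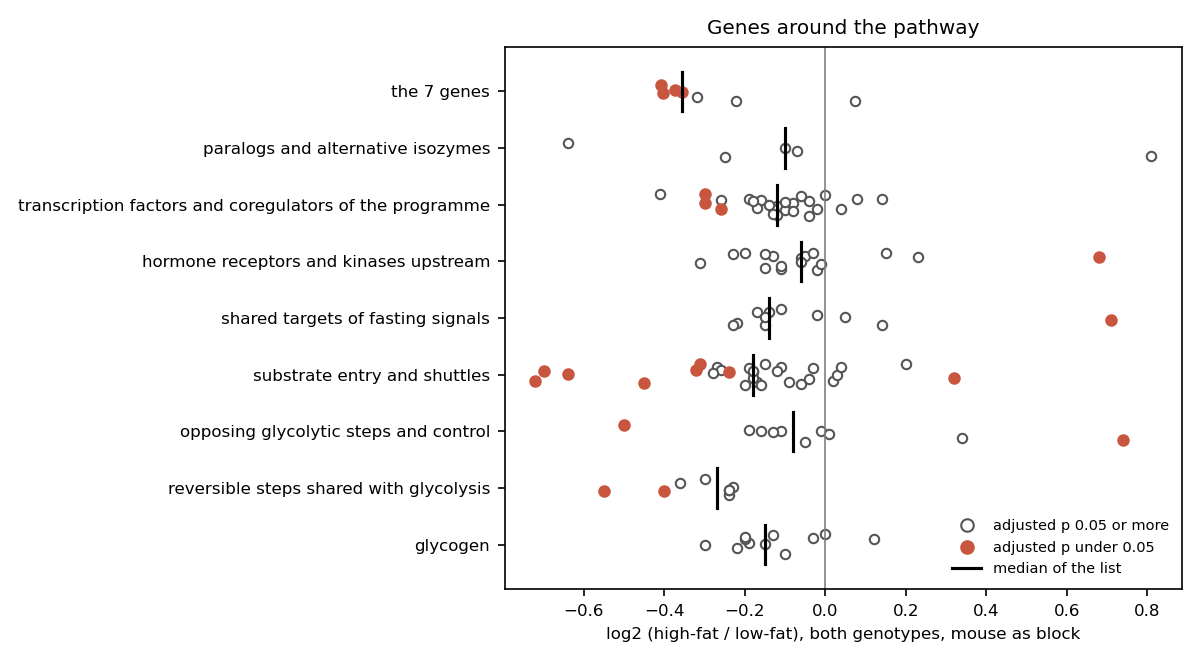
Log2 difference of high-fat and low-fat libraries over both genotypes, fitted with a term for each mouse (horizontal axis), for the 7 genes and the 8 lists around them; each point is a gene, red where the adjusted p is under 0.05, and black bars are list medians. The medians run from -0.36 for the 7 genes to -0.06 for hormone receptors and kinases, and all lie left of 0; on the scale of the hepatocyte markers those of 4 lists were above 0.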

How the data were processed

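The authors deposited 1 table of whole-number values for 52636 genes in 12 libraries, and its values are a score: gene read counts that the authors scaled to 20 M per library and rounded up, as read from the values themselves. The genome build mm9 is named per the submitters' processing notes, and the aligner, counter, annotation, strand setting and filters are not given in the sources used here. Coordinates and exon lengths come from GENCODE M21 on GRCm38, which holds 99.56% of the gene identifiers. A gene was tested if 3 or more libraries had a value of 10 or more.

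Values were rescaled by the trimmed mean of M values, in an implementation of the published definition, and tests ran on log2(value + 2), which understates the change of low genes. limma 3.58.1 in R 4.3.3 fitted 4 group means over the 12 libraries, with an intensity trend. The KO against WT test over mouse means used the 6 means of each mouse's 2 libraries. P-values are two-sided with Benjamini-Hochberg adjustment over all genes tested, and called means an adjusted p under 0.05. The fits were tested on simulated data. The pairing of fractions comes from the mouse names in the labels. Deviations of the paired libraries correlated between 0.471 and 0.581 in WT and between -0.0116 and 0.458 in KO. Same-numbered WT and KO libraries are different mice, with correlations between 0.252 and 0.397 in low-fat and between -0.173 and 0.49 in high-fat. A second fit took the mouse, or the replicate number for KO against WT, as a block. The fits without a mouse term took the 12 libraries as independent, although 2 come from each mouse. Their p-values and intervals mix the spread between mice with that between the libraries of a mouse. With the mouse as a block, p-values for the fractions measure the spread of the differences within mice. Those over mouse means measure the spread between mice, and all hold for these mice only.

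The 7 genes and all lists were chosen with earlier results of these data known. Named are the 7 genes, Ptprk, and of each list up to 6 called genes of smallest adjusted p, or the pair with the largest mean absolute difference, and for each of the 7 genes the 3 with the highest r. Krt19, Krt7, Epcam, Cd79a, Nkg7, S100a8, S100a9 and Meg3 did not pass the filter, and Tf was not analysed here. The 2 cholangiocyte, 2 leukocyte, 4 nuclear-retained and 9 immediate early genes tested had median log2 differences between fractions of -0.44, 0.53, 0.21 and 0.04 over both genotypes. Single mice differed widely in the means of these lists. The nuclear-retained mean ran from -1.24 in KO mouse 2 to 1.48 in KO mouse 1. The immediate early mean ran from -0.76 in KO mouse 2 to 0.99 in WT mouse 1. The leukocyte mean ran from -1.13 to 1.93 and the cholangiocyte mean from -0.75 to -0.16. Other scalings, pseudocounts and filters, the block, a fit of only the libraries compared and leaving out each replicate were tried as alternatives. Some list genes are not reported here.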

Additional observations from a re-analysis of the deposited data

How the results depend on the processing

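With the replicate block the number of genes called was 0 rather than 1 for KO against WT over mouse means, 169 rather than 0 for the fractions in WT, 354 rather than 148 in KO and 1731 rather than 954 over both genotypes. Of the 7 genes, G6pc, Fbp1 and Ppargc1a gained a call over both genotypes, and the block changed no other call of theirs. With an estimated same-mouse correlation of 0.351 the counts were 383, 528 and 1913 for the fractions in WT, in KO and over both genotypes, and Slc37a4 was called in WT (adjusted p = 0.047). A pseudocount of 10 gave 1 call in WT. A fit of only the libraries compared gave 0 calls for KO against WT in high-fat libraries and 0 for the fractions in KO. Alternatives added after the data were seen combined the block with other scalings: median of ratios gave 1670 calls over both genotypes, the deposited scaling 1521 (1179 higher and 342 lower) and the hepatocyte markers 1572 (1442 higher and 130 lower), against 1101 higher and 630 lower in the block alone. With the block and median of ratios, G6pc (adjusted p = 0.0535) and Fbp1 (0.0519) missed the threshold, as did G6pc on the deposited scaling (0.0805) and with the same-mouse correlation (0.217). Scaling to hepatocyte markers left 3 rather than 5 of the 7 genes lower in 6 of 6 mice, made 3 rather than 0 differ without overlap between genotypes, and gave G6pc a log2 difference of -0.039 rather than 0.02 for KO against WT in low-fat. Of all genes, 1.93% rather than 11.7% were lower in 6 of 6 mice on that scale, and 8.01% rather than 6.35% did not overlap between genotypes. Leaving out 1 replicate gave between 0 and 1 calls for KO against WT in high-fat, 0 over mouse means, between 0 and 1 in WT, between 0 and 75 in KO and between 606 and 1125 over both genotypes, and with the mouse block between 620 (without WT mouse 1) and 2951 (without KO mouse 2) over both genotypes, with 1632 without KO mouse 1. It left 5 to 6 of the 7 genes lower in every remaining mouse, and between 0 and 2 without overlap between genotypes. Both outcomes are easier to reach with fewer mice. The share of all genes that reached them is not given here, so these counts are a description only. Leaving out 1 library or mouse also turned the sign of uncalled log2 differences. For KO against WT the ranges were G6pc -0.259 to 0.198 (in low-fat), G6pc -0.352 to 0.313 (in high-fat), G6pc -0.306 to 0.26 (over mouse means), Slc37a4 -0.132 to 0.022 (in high-fat), Pck2 -0.062 to 0.461 (in low-fat), Pck2 -0.393 to 0.011 (in high-fat), Pck2 -0.092 to 0.109 (over mouse means), Fbp1 -0.218 to 0.001 (in low-fat), Fbp1 -0.202 to 0.079 (in high-fat), Pcx -0.133 to 0.114 (in high-fat), Pcx -0.14 to 0.007 (over mouse means) and Ppargc1a -0.011 to 0.464 (in low-fat). For the interaction they were G6pc -0.372 to 0.293, Pck1 -0.167 to 0.179, Fbp1 -0.094 to 0.191, Pcx -0.036 to 0.216 and Ppargc1a -0.232 to 0.256. For the fractions they were Pck2 -0.315 to 0.097 (fractions in KO) and Pck2 -0.07 to 0.198 (fractions in both genotypes), and with the mouse block Pck2 stood at -0.137 without WT mouse 2 and at -0.014 without KO mouse 1. The cause of these shifts was not tested. Pck2 rested on few reads (14 to 47 per library), and counting error and the spread of mice were not separated.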

Other observations

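Some genes on the lists around the pathway did not overlap between WT and KO mouse means, which held for 6.35% of all genes tested, and those given here were chosen after their values were seen. Nr0b2, a nuclear receptor without a DNA-binding domain that represses transcription, was higher in KO by 0.88 on the log2 scale, with 503, 1349 and 1264 reads per 20 M in WT low-fat and 1405, 1861 and 1926 in KO low-fat libraries, and 531, 1310 and 1417 against 1583, 2134 and 1800 in the high-fat libraries. By limma it was not called (adjusted p = 1). Sesn1 (0.37), Esrra (0.18) and Glud1 (0.06) were also higher in KO without overlap, none of them called.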
